A study of Homo sapiens with 6 samples.

Results

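The genes described here are 10 transcription factors of epithelial and squamous cells: TP63, KLF5, SOX2, SOX15, TFAP2A, FOXA1, ELF3, EHF, GRHL2 and NKX2-1. They were taken by gene name from the 58735 genes of the deposited table, and all 10 were found there. They were followed through 6 RNA sequencing libraries of SK-MES-1, a human cell line derived from a squamous cell carcinoma of the lung. Per the labels, the study aimed a transient knockdown at KRT6A, a keratin gene of stratified epithelia. The control group is NC, with 2 libraries, and the knockdown groups are si1 and si2, with 2 libraries each. The 3 names are not explained in the labels, which give no knockdown reagent, dose or time, no other treatment, and no genotype beyond that of a cell line. Nothing in them says that libraries 1 and 2 of a group came from separate cultures, so the p-values below measure only the spread between these libraries, which may be technical.

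A small set of transcription factors holds an epithelial cell in its lineage. TP63 encodes p63, the master regulator of basal and squamous cells, and in squamous lung tumours it is often amplified together with SOX2, its neighbour on the long arm of the same chromosome. KLF5, TFAP2A and SOX15 also act in stratified epithelia, while ELF3, EHF, GRHL2 and FOXA1 act in simple, glandular and airway epithelia. NKX2-1 marks the alveolar lineage and lung adenocarcinoma, and pathologists use p63 and NKX2-1 as opposing markers of squamous carcinoma and adenocarcinoma.

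Levels are given in FPKM, fragments scaled to gene length and sequencing depth, as computed by the authors. The reads behind each value were recovered from the FPKM and the deposited gene length, and numbered 14948607 to 17401392 per library. A member was called silent where no library held more than 3 reads, low where its mean over the 6 libraries was under 1 FPKM, and tested where that mean was at least 1 FPKM. TP63, KLF5, FOXA1, ELF3, TFAP2A and EHF, 6 of the 10 members, were tested. SOX2, SOX15 and GRHL2 were low, and NKX2-1 was silent. Differences between groups were tested with limma on log2(FPKM + 1) over the 12319 genes that averaged 1 FPKM or more, and a call means an adjusted p (Benjamini-Hochberg) under 0.05. Fold changes are on that scale, which understates the change of genes with low values, so the ratio of mean FPKM is also given for the called members.

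The targeted gene, KRT6A, had 0 reads in all 6 libraries, so the labels could not be checked from it. Of 9 squamous and basal marker genes only PKP1, a plakophilin of desmosomes, reached a mean of 1 FPKM. KRT6A and DSG3 had no read in any library, and KRT5 and KRT14, the keratins of basal cells, had at most 1 read in any library. The epithelial marker genes were present: KRT7, KRT8, KRT18, KRT19 and EPCAM, 5 of 6, reached 1 FPKM, while CDH1, which encodes E-cadherin, averaged 0.130 FPKM. The labelled squamous origin therefore stands beside a keratin profile in which KRT7 and KRT19, at 180 and 91.0 FPKM in NC, were high and the basal keratins were at or near 0. Of the markers of other cell types, COL1A1 of the fibroblast list (18.8 FPKM on average) and AVIL of the tuft cell list (1.05 FPKM) were the ones that reached 1 FPKM.

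ELF3 was higher in both knockdown groups, and TP63 was higher in si2 but not in si1. FOXA1 had smaller log2 fold changes, 0.36 in si1, which was not called, and 0.45 in si2, which was. Its call in si2 held in 9 of 14 alternative fits. KLF5, TFAP2A and EHF passed the test in no comparison. With both knockdown groups against NC, 3 of the 6 tested members were called, all higher. Of all tested genes, 8.73% were called higher and 20.5% were called in either direction. Without NC library 1, NC library 2 or si2 library 1, 1 of those 3 members was still called. In si1 against NC, 1 member was called higher, beside 9.47% of tested genes higher and 22.4% in either direction. In si2 against NC, 3 members were called higher, beside 13.6% and 29% of tested genes. In si2 against si1, 1 member was called higher, beside 19.9% and 38.5%. The 6 tested members had a median log2 fold change of 0.27 in both groups together, 0.20 in si1 and 0.32 in si2, where the median over all tested genes was −0.01, −0.01 and 0.00. The comparisons of si1 and si2 with NC share the NC libraries.

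**Figure D1:**
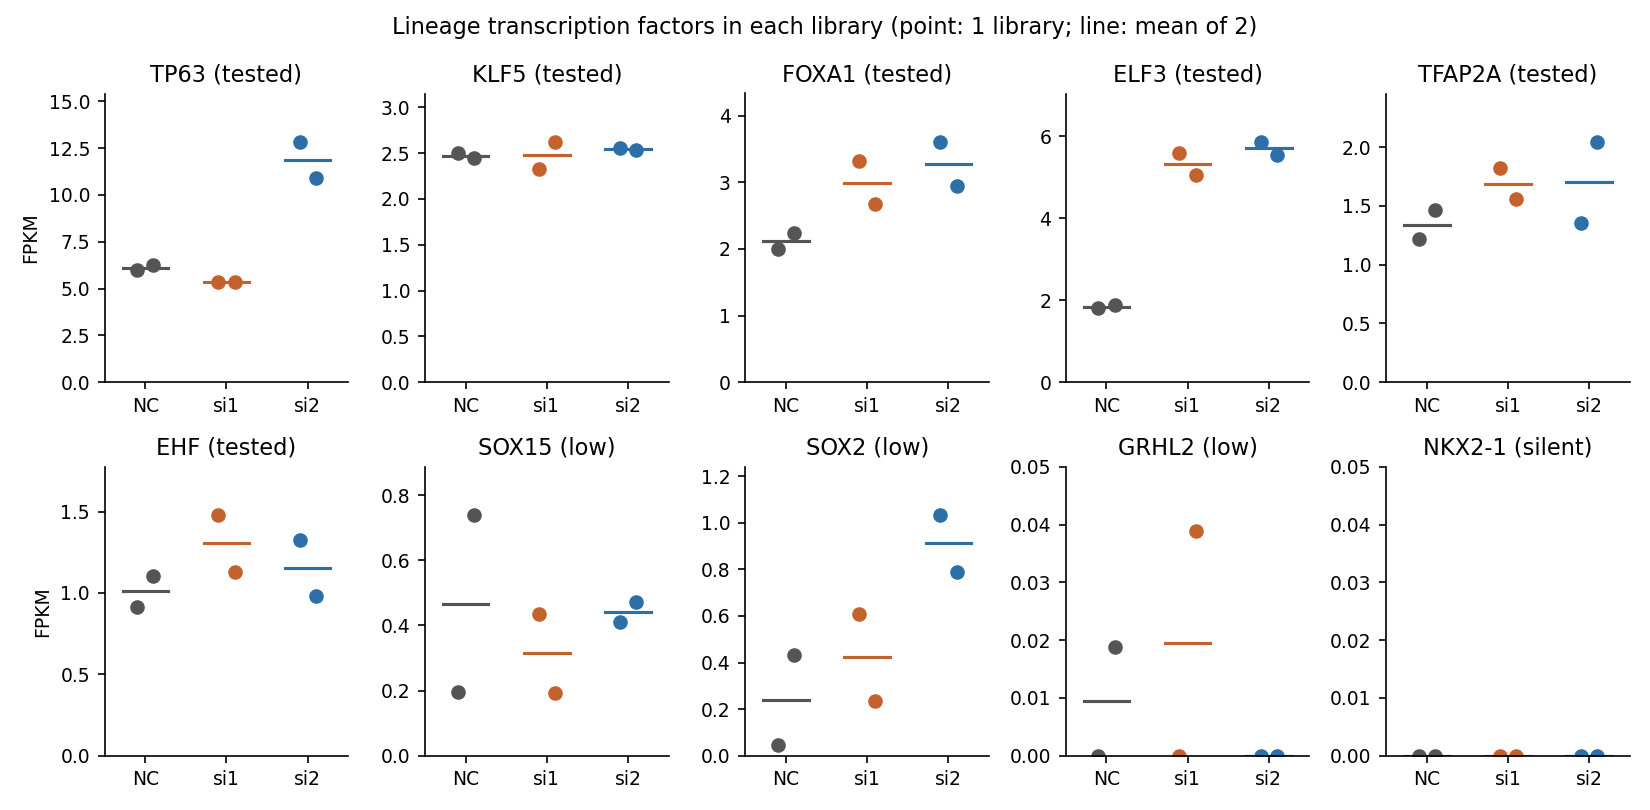
FPKM of the 10 members (vertical axes, each panel on its own scale from 0) in the 2 libraries of NC, si1 and si2; each point is a library and each line the mean of 2. ELF3 lies higher in all 4 knockdown libraries than in NC, TP63 is high in si2 alone, KLF5 is level, and NKX2-1 is at 0 throughout.

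For the 3 members that were called, the promoter is shown first, because only these passed the test in any comparison. The windows run from 250 bases before to 50 bases after a RefSeq transcription start (GRCh38.p14), 5′ to 3′ on the strand of the gene. ELF3 lies at chr1:202010337-202010636 on the plus strand, FOXA1 at chr14:37595200-37595499 on the minus strand, and TP63 at chr3:189631139-189631438 on the plus strand. Capitals mark matches, on either strand, to the 9 motifs searched.
ELF3: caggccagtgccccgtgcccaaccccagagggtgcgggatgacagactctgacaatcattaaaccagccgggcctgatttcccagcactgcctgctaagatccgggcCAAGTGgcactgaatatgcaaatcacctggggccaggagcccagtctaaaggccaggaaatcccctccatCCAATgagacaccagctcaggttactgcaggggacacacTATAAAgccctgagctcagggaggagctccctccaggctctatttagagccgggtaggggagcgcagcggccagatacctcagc
FOXA1: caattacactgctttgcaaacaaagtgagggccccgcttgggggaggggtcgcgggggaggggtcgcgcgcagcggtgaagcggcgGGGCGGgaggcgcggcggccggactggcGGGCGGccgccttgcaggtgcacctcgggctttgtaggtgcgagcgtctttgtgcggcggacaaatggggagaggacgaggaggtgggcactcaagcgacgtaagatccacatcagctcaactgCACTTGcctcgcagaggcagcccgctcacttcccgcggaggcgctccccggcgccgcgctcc
TP63: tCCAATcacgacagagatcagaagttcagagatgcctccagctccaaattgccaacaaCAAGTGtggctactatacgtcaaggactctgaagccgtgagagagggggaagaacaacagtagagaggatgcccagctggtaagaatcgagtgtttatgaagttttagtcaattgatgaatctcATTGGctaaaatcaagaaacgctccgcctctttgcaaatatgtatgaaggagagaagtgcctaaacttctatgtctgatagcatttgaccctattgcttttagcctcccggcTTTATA

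Each of these 3 windows holds CAAGTG, a core that NKX2-1 and its relatives bind, at position −143 in ELF3, −12 in FOXA1 and −192 in TP63, counted from the start. The same 6 letters occur in 11.5% of the 35116 windows of this length in the table. They are also in a window of KLF5 (−11), EHF (−204) and NKX2-1 (−147), members that were not called. The windows of SOX2 and TFAP2A lack them, so the match does not set the called members apart. ELF3 also has a TATA box, TATAAA, at −34 and CCAAT at −73, found in 11.5% and 34.6% of all windows. FOXA1 has the GC box of KLF and SP factors, GGGCGG, at −164 and −136, as 45.0% of windows have. TP63 has CCAAT at −249 and −68, and TATAAA on the reverse strand at position 45 after the start. The letters of an ETS site of the ELF3 and EHF kind (AGGAAG, in 33.6% of windows), a grainyhead site (AACCNGTT, 1.73%), an AP-2 site (GCCNNNGGC, 23.2%), a forkhead site (TGTTTAC, 3.42%) and a SOX site (ACAATG, 10.8%) are not in these 3 windows. The motifs were searched on both strands, and no match to one overlaps another in them. GC content was 59% in ELF3, 69.3% in FOXA1 and 43.7% in TP63, beside a median of 58.7%. The table holds windows for 8 of the 10 members. A match is a description of the letters and not a measured binding site.

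TP63 (ENSG00000073282, chr3:189631416-189897279, hg38, plus strand) had the highest level of the 10 members in NC. Its level was 5.97 and 6.25 FPKM in NC, 5.37 and 5.34 in si1, and 12.8 and 10.9 in si2. Both si2 libraries were high, and both si1 libraries lay slightly under both NC libraries, so no pair of groups overlapped.

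The mean of TP63 in si2 was 1.94 times that in NC and 2.22 times that in si1. It rose by 0.85 log2 units in si2 against NC (SE 0.0922, adjusted p = 0.00119) and was 1.01 units higher in si2 than in si1 (SE 0.0922, adjusted p = 3.42e-04). In si1 against NC the difference was −0.16 log2 units, with a 95% interval from −0.38 to 0.06 and an adjusted p of 0.254. The change of 0.35 units with both groups together (adjusted p = 0.0247) averages these 2 unlike values. It lost its call without NC library 1 (adjusted p = 0.163), NC library 2 (0.118) or si2 library 1 (0.0585), with no filter on low values (0.0939), and where the 4 knockdown libraries were fitted as 1 group (0.723). The calls in si2 against NC and against si1 held in all 14 alternatives. Between 654 and 1513 reads lay behind each TP63 value.

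TP63 makes 2 main kinds of protein from separate promoters: TA forms, which carry an N-terminal activation domain, and ΔN forms, which lack it and predominate in squamous cells. GENCODE lists 14 transcripts of the gene with 8 start positions spread over 158 kb. The deposited value sums all of them, so the TA and ΔN forms cannot be told apart here. The promoter window printed above belongs to an upstream start at the beginning of the gene. Windows of starts further along the gene are not shown. Which start the TP63 reads came from cannot be told, so the window may not be the promoter behind the change.

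KLF5 (ENSG00000102554, chr13:73054976-73077542, plus strand) encodes a zinc finger factor of proliferating basal epithelium. Its level was 2.51 and 2.44 FPKM in NC, 2.33 and 2.63 in si1, and 2.55 and 2.53 in si2. The si1 libraries lay on both sides of NC, and the si2 libraries lay just above it. The log2 fold change was −0.00 in si1, with a 95% interval from −0.25 to 0.24, and 0.03 in si2, with an interval from −0.22 to 0.27 (adjusted p = 0.997 and 0.866). Of the 6 tested members KLF5 had the log2 fold changes nearest to 0 in si1 and in si2, on 148 to 173 reads per library.

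TFAP2A (ENSG00000137203, chr6:10393186-10419659, minus strand) encodes AP-2 alpha, a regulator of epidermal and neural crest genes. It was at 1.22 and 1.47 FPKM in NC, 1.82 and 1.56 in si1, and 1.35 and 2.05 in si2. The si1 libraries lay above both NC libraries, and si2 overlapped NC, with library 2 the highest of the 6. Its log2 fold change was 0.20 in si1 and 0.20 in si2, with 95% intervals from −0.19 to 0.59 and from −0.20 to 0.59 (adjusted p = 0.434 and 0.414). A change of the size measured for FOXA1 lies inside both intervals.

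SOX2 (ENSG00000181449, chr3:181711924-181714436, plus strand) encodes a pluripotency and foregut factor that works with p63 in squamous cells. It was at 0.0476 and 0.430 FPKM in NC, 0.608 and 0.235 in si1, and 1.03 and 0.790 in si2. These values rest on 2 and 19 reads in NC, 25 and 10 in si1, and 41 and 30 in si2. Both si2 libraries were above all others, si1 overlapped NC, and the lowest NC value lay under the level of 3 reads, 0.0714 FPKM.

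SOX2 was not among the genes tested at 1 FPKM. Further fits gave different answers for it in si2 against NC. With limma voom on the recovered reads of 16169 genes, low genes included, an alternative chosen after the data were seen, SOX2 was 2.48 log2 units higher (SE 0.742, adjusted p = 0.0114). With log2(FPKM + 1) and no filter, it was 0.64 units higher (SE 0.221, adjusted p = 0.201). In si2 against si1 the voom difference was 1.23 units (adjusted p = 0.0956), and in si1 against NC 1.25 (0.293). SOX2-OT, the long non-coding gene around SOX2, held at most 6 reads in a library.

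SOX15 (ENSG00000129194, chr17:7588178-7590170, minus strand), a SOX factor of basal and oesophageal epithelium, was at 0.194 and 0.739 FPKM in NC, 0.437 and 0.192 in si1, and 0.411 and 0.472 in si2. The NC libraries spanned the other 4 apart from the lowest si1 library. It had 5 to 20 reads a library. The voom fit with low genes gave 0.18 log2 units in si2 against NC (adjusted p = 0.891). SOX15 shares its span with MPDU1 on the opposite strand, which had 528 to 718 reads, and nothing in the sources used here says that the counting used strand, so some of the SOX15 reads could belong to MPDU1.

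ELF3 (ENSG00000163435, chr1:202007945-202017188, plus strand) encodes an ETS factor of differentiating simple and airway epithelium. It was at 1.81 and 1.88 FPKM in NC, 5.61 and 5.04 in si1, and 5.87 and 5.56 in si2. All 4 knockdown libraries were far above both NC libraries, and si1 overlapped si2.

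Mean ELF3 was 2.89 times that of NC in si1 and 3.10 times in si2. The log2 fold change was 1.15 in si1 (SE 0.0903, adjusted p = 3.88e-04) and 1.24 in si2 (SE 0.0903, adjusted p = 2.99e-04), and higher in 4 of 4 knockdown libraries. Between si2 and si1 the difference was 0.09 units, with a 95% interval from −0.13 to 0.30 (adjusted p = 0.482). ELF3 kept its call in all 14 alternatives in each group. Among the 868 tested genes that the deposited table assigns to a transcription factor family, ELF3 had the second highest log2 fold change with both groups together and the third highest in si1 and in si2.

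The antisense gene ELF3-AS1 overlaps the upstream part of ELF3, including the start of the promoter window. It had 92 to 163 reads a library, against 218 to 667 for ELF3, and was at 1.25 and 0.941 FPKM in NC, 1.36 and 1.27 in si1, and 1.78 and 1.94 in si2. Its log2 fold change was 0.15 in si1 (adjusted p = 0.493) and 0.45 in si2 (0.0509). Whether reads of the overlap were assigned by strand is not known, because the strand setting is not given.

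EHF (ENSG00000135373, chr11:34621093-34661057, plus strand) encodes the closest relative of ELF3 among the members, an ETS factor of glandular and airway epithelium. It was at 0.914 and 1.10 FPKM in NC, 1.48 and 1.13 in si1, and 1.33 and 0.980 in si2. The si1 libraries lay above NC by little, and si2 overlapped NC. The log2 fold change was 0.20 in si1 and 0.10 in si2, with 95% intervals from −0.20 to 0.59 and from −0.30 to 0.49 (adjusted p = 0.446 and 0.701). The ELF3 change lies outside both intervals. EHF rested on 65 to 106 reads a library.

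FOXA1 (ENSG00000129514, chr14:37589984-37596059, minus strand) encodes a pioneer factor of endoderm-derived and hormone-responsive epithelia. It was at 1.999 and 2.23 FPKM in NC, 3.32 and 2.67 in si1, and 3.61 and 2.94 in si2. All 4 knockdown libraries lay above both NC libraries, and si1 overlapped si2.

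The mean of FOXA1 was 1.42 times that of NC in si1 and 1.55 times in si2. It rose by 0.45 log2 units in si2 (SE 0.131, adjusted p = 0.0396) and by 0.40 with both groups together (SE 0.113, adjusted p = 0.0461). In si1 the difference was 0.36 (SE 0.131, adjusted p = 0.0973), and between si2 and si1 0.10, with a 95% interval from −0.21 to 0.41. The call in si2 was lost without NC library 1 (adjusted p = 0.169), NC library 2 (0.107), si2 library 1 (0.193) or si2 library 2 (0.0546), and with no filter on low values (0.152). The call with both groups together held in 6 of 14 alternatives, with adjusted p from 0.0152 to 0.234. It was lost without NC library 1 (0.234), NC library 2 (0.147), si1 library 1 (0.0831), si2 library 1 (0.107) or si2 library 2 (0.0507). FOXA1 had 133 to 227 reads a library.

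**Figure D2:**
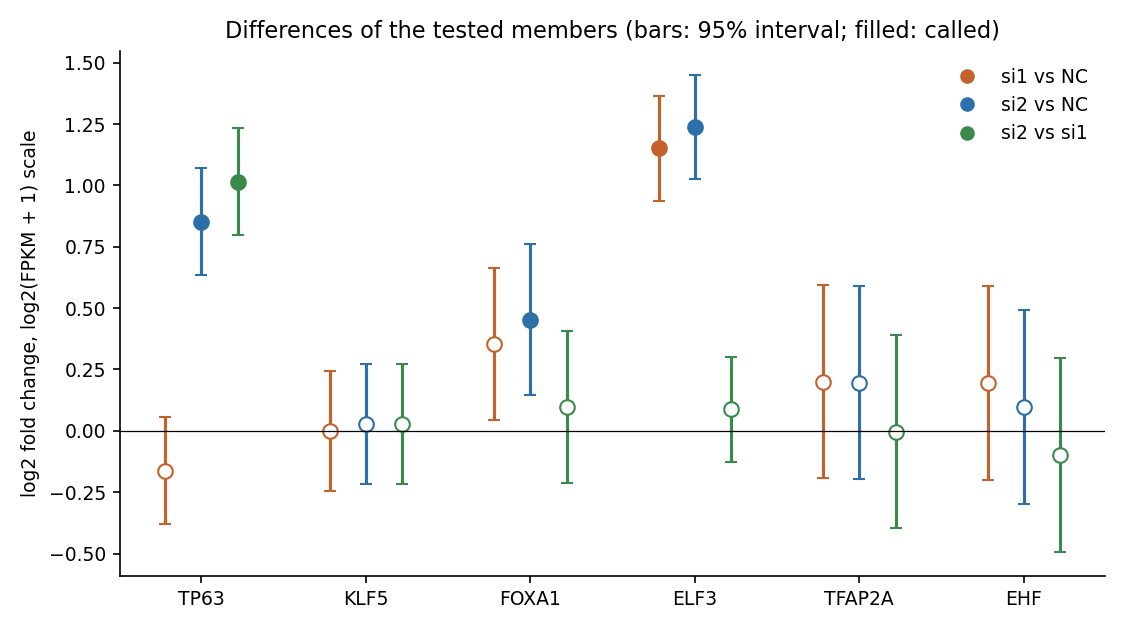
Log2 fold change on the log2(FPKM + 1) scale (vertical axis) of the 6 tested members for the contrasts si1 to NC, si2 to NC and si2 to si1; bars are 95% intervals and filled points are called. ELF3 has similar values in si1 and si2, whereas TP63 lies at −0.16 in si1 and 0.85 in si2.

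GRHL2 (ENSG00000083307, chr8:101492432-101669726, plus strand) encodes a grainyhead factor that maintains E-cadherin and junction genes. It had 0 and 2 reads in NC, 0 and 4 in si1, and none in si2, or at most 0.0390 FPKM. It was 1 read above the limit for silent genes in 1 library, and a count of 0 allows up to 0.0296 to 0.0327 FPKM in the libraries that held none. NKX2-1 (ENSG00000136352, chr14:36516392-36521149, minus strand) had 0 reads in all 6 libraries, which allows up to 0.0540 to 0.0627 FPKM. These limits cover counting error only. All 6 alveolar marker genes were also under 1 FPKM, and SFTPA1, SFTPC and SLC34A2 had no read in any library.

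In NC the order of the tested members was TP63 (6.11 FPKM ± 0.195, SD, n = 2), KLF5 (2.47 ± 0.0445), FOXA1 (2.11 ± 0.164), ELF3 (1.85 ± 0.0442), TFAP2A (1.34 ± 0.177) and EHF (1.01 ± 0.134). No neighbours in that order overlapped between their NC libraries, though the higher ELF3 library (1.88 FPKM) came close to the lower FOXA1 library (1.999 FPKM). SOX15 (0.467 ± 0.385) and SOX2 (0.239 ± 0.271) overlapped. In si1 ELF3 overlapped TP63, in si2 it stood second, and in both groups it was above FOXA1 and KLF5.

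Among tested protein-coding genes in NC, TP63 was above 43.4%, KLF5 above 17.2%, FOXA1 above 13.7%, ELF3 above 10.7%, TFAP2A above 4.66% and EHF above 1.29%. Among the tested transcription factor genes TP63 was above 63.8%. The order in the middle depends on the length used. The deposited length of ELF3 was 7191 bases and that of TFAP2A 8274, while their longest coding transcripts in GENCODE have 4994 and 3829. Per kilobase of the longest coding transcript, TP63 would stay first at 9.28, followed by FOXA1 at 2.94, TFAP2A at 2.90, KLF5 at 2.70, ELF3 at 2.66 and EHF at 1.40.

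The median log2 fold change of the tested transcription factors was 0.07 in both groups together, beside −0.01 for all tested genes. Of the 868, 200 (23.0%) were called in that comparison, 136 higher and 64 lower. In si2 against NC TP63 ranked seventeenth from the highest, and in si1 it stood at place 671. FOXA1 stood at place 142 in si1 and 106 in si2.

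**Figure D3:**
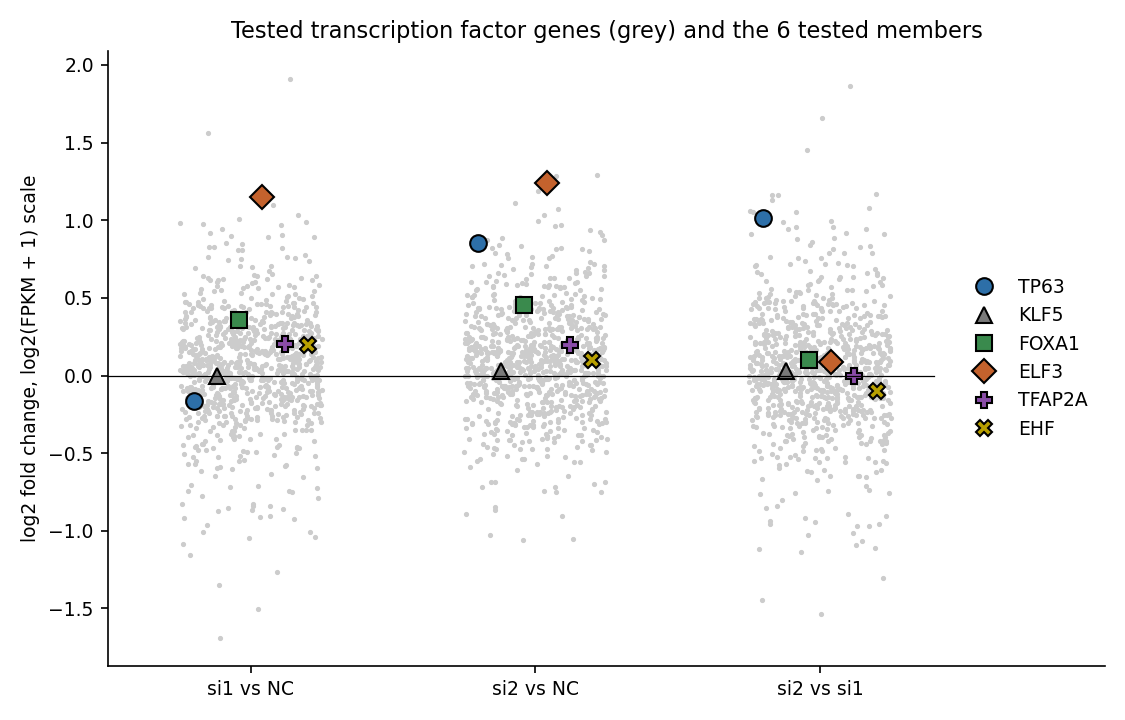
Log2 fold change on the log2(FPKM + 1) scale (vertical axis) of the 868 tested transcription factor genes in 3 comparisons, with the 6 tested members as large symbols and all others as grey points spread sideways at random. ELF3 lies near the top in si1 and si2 against NC, and TP63 in both comparisons of si2.

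Some genes followed a member closely over the 6 libraries. The measure was Pearson's r of log2(FPKM + 1) over the 6 libraries among 10761 other protein-coding genes, and the 3 highest are named for each called member as a description. For TP63 they were CMTM7 (r = 0.996), MOSMO (0.994) and THAP6 (0.994). CMTM7, a membrane protein, was at 16.5 and 17.2 FPKM in NC, 14.2 and 14.2 in si1, and 31.2 and 28.4 in si2, high in si2 as TP63 was. For ELF3 they were ZNF83 (0.998), a zinc finger gene, IGFBP4 (0.997), a secreted binding protein of insulin-like growth factors, and NT5C2 (0.997), a nucleotidase. For FOXA1 they were CPLANE2 (0.989), TFDP2 (0.984) and NTAN1 (0.979). Among the members, ELF3 and FOXA1 had an r of 0.91 and ELF3 and TP63 one of 0.42. The libraries share their groups, so these values mostly repeat the group differences.

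The relatives of the members were then examined. Of 52 relatives in the same families, 26 were tested, 11 were low and 15 were silent. With both groups together 5 were called higher and 3 lower, beside 20.5% of all tested genes in either direction, with a median log2 fold change of 0.04. The KLF family was the most widely present, with 11 of 12 relatives tested and none silent, whereas 7 of 17 SOX relatives and 4 of 5 NKX2 relatives were silent.

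SOX4, a SOX factor of progenitor cells, rose by 0.57 log2 units in both groups together (adjusted p = 0.00188). It was at 10.9 and 12.1 FPKM in NC, 25.7 and 26.0 in si1, and 11.6 and 12.1 in si2, so the si1 libraries alone were high. SOX9, a factor of progenitor and distal airway cells, fell by 0.33 (adjusted p = 0.0087) and was at 41.4 and 45.0 FPKM in NC, 24.3 and 23.5 in si1, and 48.8 and 48.0 in si2. It was low in si1 alone. SOX9 was far above SOX2 and SOX15 in every library.

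Among ETS relatives of ELF3 and EHF, ELF4 fell by 0.61 in both groups together (adjusted p = 0.00362, and 0.0874 in si2 alone), from 33.5 and 33.5 FPKM in NC to 18.5 and 15.1 in si1 and 28.3 and 27.3 in si2. ELF1 and ELF2 passed the test in no comparison, and ELF5 had no read. KLF13 rose by 0.45 (adjusted p = 0.00733) and UBP1, a relative of the grainyhead factors, by 0.34 (0.00938), while KLF10, induced early by TGF-beta, fell by 0.33 (0.0219). KLF4, a factor of differentiating squamous cells, moved in opposite directions, with −0.32 in si1 (adjusted p = 0.0466) and 0.41 in si2 (0.0169), and 0.74 in si2 against si1 (0.00123).

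FOXA2, the nearest relative of FOXA1, was above it in all 6 libraries, at 6.71 and 6.69 FPKM in NC, 5.83 and 4.61 in si1, and 7.32 and 8.06 in si2. Against NC it did not pass the test (−0.32 in si1, adjusted p = 0.081, and 0.17 in si2, 0.277), and it was 0.49 higher in si2 than in si1 (adjusted p = 0.0121). TFAP2C, a relative of TFAP2A, was at 1.59 and 2.41 FPKM in NC, 1.14 and 1.199 in si1, and 3.58 and 2.49 in si2, without overlap. It was 0.88 higher in si2 than in si1 (adjusted p = 0.0095). NKX2-8, the one tested relative of NKX2-1, averaged 3.22 FPKM in NC, then 2.59 in si1 and 2.56 in si2, and passed the test in no comparison. TP73, a relative of TP63, was low.

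**Figure D4:**
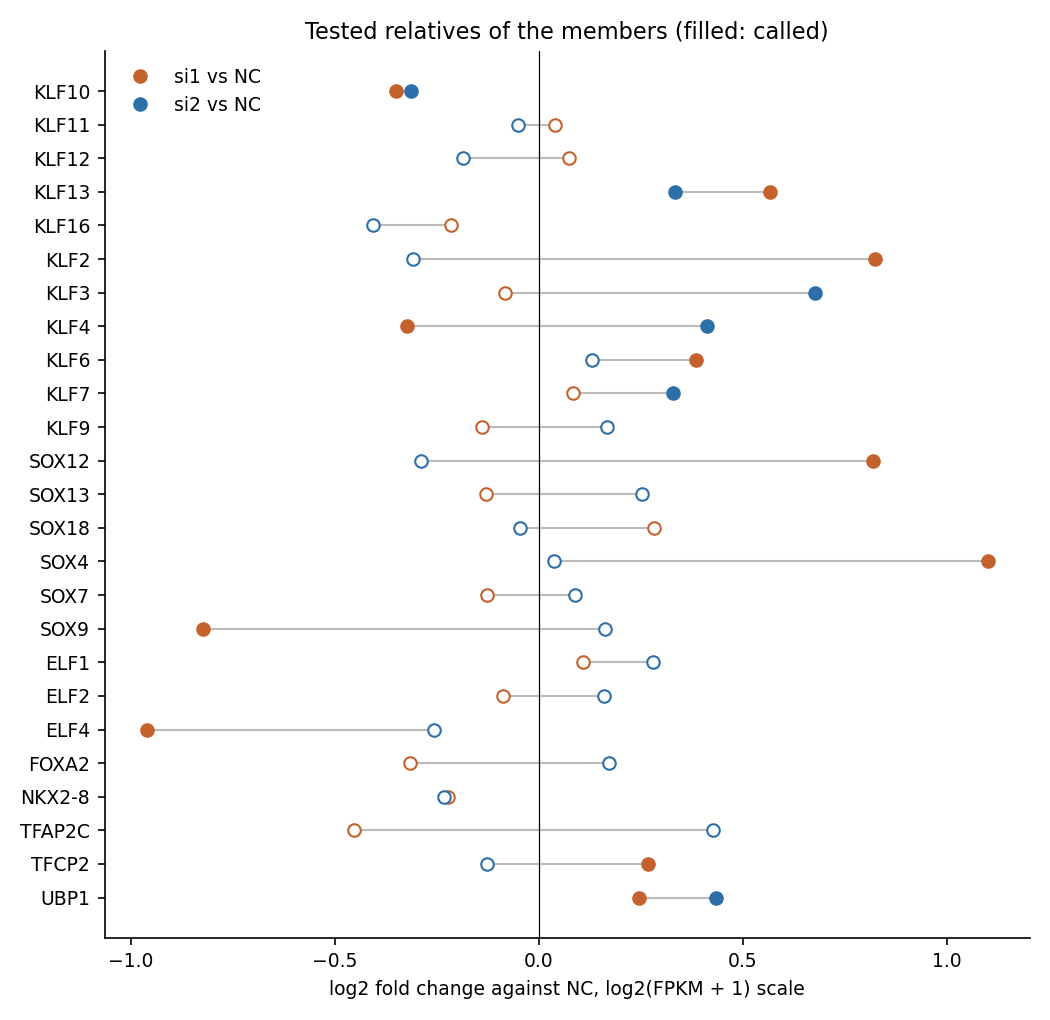
Log2 fold change against NC on the log2(FPKM + 1) scale (horizontal axis) of tested relatives of the members in si1 and si2, with a line joining both values of a gene and filled points for called genes. SOX4 at 1.10 and SOX9 at −0.82 in si1 lie far from their si2 values of 0.04 and 0.16.

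Other lineage factors of epithelia gave 2 called higher and 1 lower of 11 tested with both groups together, beside 20.5% of all tested genes in either direction, with a median of −0.18. In si1 1 was higher and 3 lower, with a median of −0.15, and in si2 3 were higher and 2 lower, with a median of 0.16. Of all tested genes, 22.4% were called in either direction in si1 and 29% in si2. ID1, an inhibitor of basic helix-loop-helix factors, rose by 0.43 (adjusted p = 0.00138), with 0.70 in si1 (3.10e-04) and 0.16 in si2 (0.0575). PITX1 rose by 0.38 (adjusted p = 0.0276), with 0.27 in si1 (0.11) and 0.48 in si2 (0.0149). GATA6, an endoderm factor, fell by 0.40 (0.0181) and passed the test in both groups. Of 10 tested regulators of the mesenchymal state, 2 were called higher and 1 lower, beside the same 20.5%: TCF3 rose by 0.97 (adjusted p = 5.15e-04) and SNAI1 by 0.77 (0.0107, and 0.055 in si2 alone), and FOXQ1 fell by 0.50 (0.00531). TCF3 was at 10.1 and 10.3 FPKM in NC and between 19.6 and 22.6 in the 4 knockdown libraries, without overlap. Of 10 regulators of p63 and KLF5 protein stability, all tested, 1 was called higher and 1 lower, beside the same 20.5%. The ligase gene WWP1 rose by 0.38 (adjusted p = 0.00944) and the deubiquitinase gene BAP1 fell by 0.39 (0.0286, and 0.123 in si1 alone).

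Of 35 squamous and basal genes, many of them targets of p63, 15 were tested, 10 were low and 10 silent. In si2, where TP63 was high, 4 were called higher and 5 lower, with a median of −0.20, beside 29% of all tested genes called in either direction. In si1 4 were called higher and 5 lower, with a median of −0.04, beside 22.4%. With both groups together 2 rose and 6 fell, beside 20.5%. PERP, a desmosomal target of p63, rose by 1.02 (adjusted p = 4.67e-04), from 51.8 and 49.3 FPKM in NC to 88.1 and 105 in si1 and 112 and 111 in si2. GPC1 rose by 0.31 (0.0158), with 0.69 in si1 (adjusted p = 0.00115) and −0.07 in si2 (0.533). SFN, which encodes 14-3-3 sigma, fell by 0.26 (0.0216), with 0.09 in si1 (adjusted p = 0.396) and −0.62 in si2 (0.00122).

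LAMB3, a chain of laminin 332 in the basement membrane, fell by 0.63 (adjusted p = 9.18e-04), and KRT15, a basal keratin, by 0.54 (0.0254, and 0.194 in si2 alone). ITGA6, the alpha 6 integrin of basal cells, and JAG1, a Notch ligand, were chosen after their values were seen. ITGA6 was at 65.1 and 66.8 FPKM in NC, 41.0 and 43.3 in si1, and 107 and 105 in si2. JAG1 was at 17.4 and 17.5 FPKM in NC, 7.89 and 7.96 in si1, and 25.5 and 24.7 in si2. Both were low in si1 and high in si2, and they differed between si2 and si1 by 1.32 and 1.55 log2 units (adjusted p = 3.02e-05 and 2.85e-05). Of the 15 tested squamous and basal genes, 4 were called higher and 6 lower in si2 than in si1, with a median of 0.10. Among all tested genes, 19.9% were called higher there and 38.5% in either direction, so these genes do not stand for the list.

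Of 38 genes of epithelial junctions and surfaces, 23 were tested. With both groups together 4 rose and 4 fell, beside 20.5% of all tested genes in either direction. In si2 against si1 1 was higher and 10 were lower, beside 19.9% of all tested genes higher and 38.5% in either direction. The median there was −0.36, beside 0.01 for all tested genes. MUC1, a membrane mucin, rose by 0.59 in both groups together (adjusted p = 0.0225), with 1.13 in si1 (adjusted p = 0.00297) and 0.05 in si2 (0.825). EPCAM, an epithelial adhesion protein, rose by 0.35 (0.0206) and passed the test in both groups. CLDN4, a tight junction claudin, fell by 0.83 (0.00325), KRT7 by 0.50 (0.00104) and CDS1 by 0.49 (0.00731). CLDN4 and KRT7 passed the test in both groups, whereas CDS1 was at 0.02 in si1 (adjusted p = 0.878) and −1.01 in si2 (6.31e-04).

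Beside the high TP63 of si2, the summed FPKM of the 6 epithelial marker genes was 264 to 277 in si2, against 355 to 379 in NC and 370 to 376 in si1. KRT7 and KRT19 make up most of this sum and were at −0.68 and −0.70 log2 units in si2 against NC, while KRT18 (0.27, adjusted p = 0.0279) and EPCAM (0.36, 0.0216) of the same markers were called higher there. The sum of the squamous and basal markers, nearly all of it PKP1, was 10.4 to 10.6 in si2, against 19.0 to 19.97 in NC and 18.3 to 19.4 in si1. The fibroblast sum, mostly COL1A1, was 16.2 to 16.6 in NC, 19.1 to 23.4 in si1 and 21.9 to 22.5 in si2, with COL1A2 at 0 reads. The part of these shifts in the member changes was not tested. In bulk RNA, fewer cells of a type and less RNA per cell cannot be told apart.

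Of 25 lung secretory and alveolar genes, 7 were tested, 3 of them called higher and none lower with both groups together, beside 8.73% of all tested genes higher, with a median of 0.12. In si1 3 were higher and 2 lower, and in si2 3 were higher and 1 lower, beside 22.4% and 29% of all tested genes in either direction. LCN2, an iron-binding defence protein of airway epithelium, rose by 1.03 (adjusted p = 0.00103), from 6.33 and 4.88 FPKM in NC to 10.6 and 10.4 in si1 and 15.3 and 13.9 in si2. LPCAT1, an enzyme of surfactant lipid synthesis, rose by 0.86 (2.40e-04), and SLPI, a secretory protease inhibitor, by 0.56 (0.0422). For SLPI the difference passed the test in si1 (0.89, adjusted p = 0.013) and not in si2 (0.23, 0.367), and it was 0.66 lower in si2 than in si1 (adjusted p = 0.0237).

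**Figure D5:**
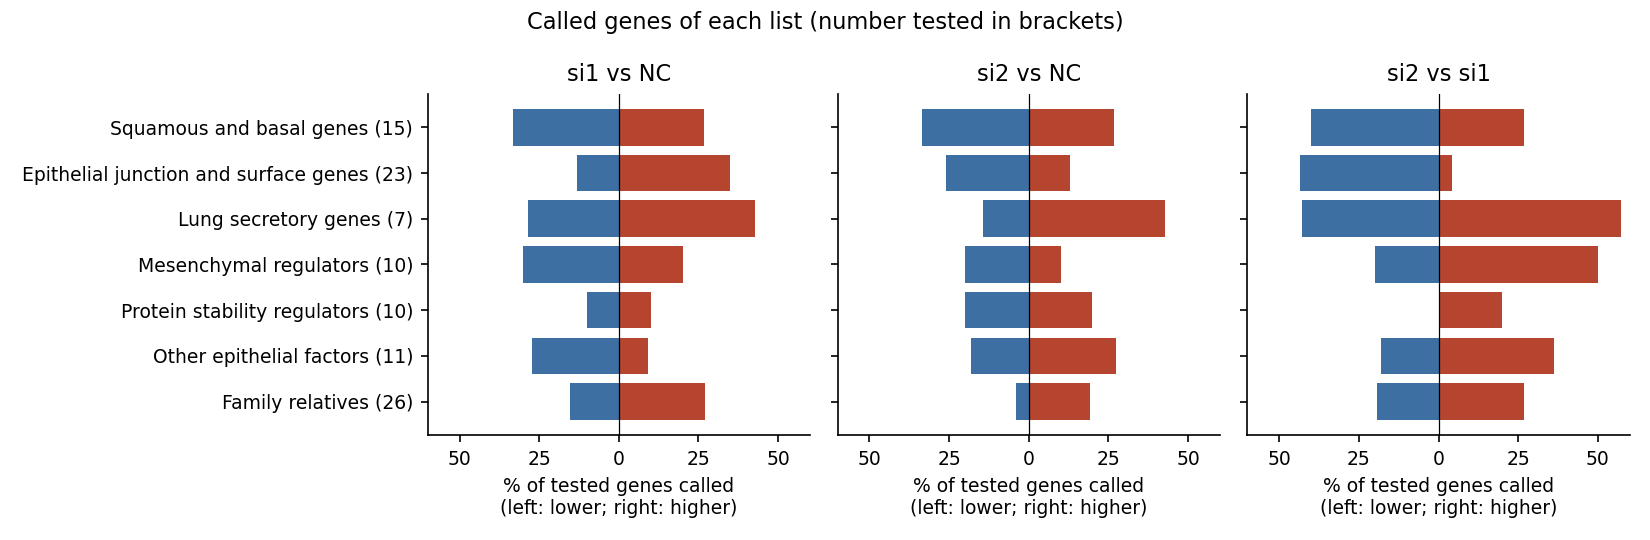
Share of the tested genes of each list called higher (right) or lower (left), in percent (horizontal axes), for si1 and si2 compared with NC and for si2 compared with si1, with the number tested in brackets. Of the epithelial junction and surface genes, 10 of 23 were lower in si2 than in si1 and 1 was higher. Of all tested genes, 38.5% were called in either direction there and 19.9% higher.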

How the data were processed

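RNA-seq of 6 libraries was used, grouped by the library names in the labels. Total RNA was taken up in Trizol and sequenced from Illumina libraries, per the labels' protocols. The deposited values are FPKM computed by the authors for 58735 genes. They rest on build hg38, as the submitters' processing notes state. Aligner, counting program, strand setting and annotation are not given in the sources used here. The coordinates of all 58735 genes were those of GENCODE release 29.

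For 100% of values, FPKM times the deposited length came out as whole reads within 0.001 reads, which gave the reads behind each value. SOX2, SOX15 and GRHL2 had at most 41 reads in a library, so counting error limits the precision of their values most. The tested members had 65 reads or more in each library, where it weighs less.

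The log2(FPKM + 1) values of the 6 libraries were fitted with limma 3.58.1 (R 4.3.3), with 1 coefficient per group, a variance trend and two-sided tests, leaving 3 residual degrees of freedom. Genes needed a mean of at least 1 FPKM. P-values were Benjamini-Hochberg adjusted over the 12319 genes of a contrast. In 4 contrasts, NC was set against the average of both knockdown groups and against each of them, and si2 against si1. The fit was also run on simulated counts with 200 changed genes, all of them with many reads. That run does not cover members with few reads, and no result here rests on it.

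All members are named. From each list the text names the genes called with both groups together, or the 3 highest and 3 lowest where more than 6 were called, beside tested relatives, overlapping genes and, for called members, the 3 genes with the highest r. A few genes that this would name are left out of the text. The members, lists and rules were chosen with earlier results of these data known. Alternatives were another pseudocount, no filter, equal medians, no variance trend, leaving out each library, a replicate block, other sample sets and limma voom on the recovered reads, the last chosen after the data were seen.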

Additional observations from a re-analysis of the deposited data

Results flagged for a closer look

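The effect on TP63 against NC differed between the knockdown groups. The difference, tested directly as si2 against si1, was 1.01 log2 units (limma, SE 0.0922, adjusted p = 3.42e-04), with both si2 libraries above and both si1 libraries below the 2 NC libraries.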

How the results depend on the processing

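Over the alternatives, 304 of 336 member values kept their direction and side of the threshold, 18 lost a call and 14 changed sign. The calls of ELF3 in each knockdown comparison and of TP63 in si2 against NC and against si1 held in every alternative run, while those of FOXA1 and of TP63 with both groups together did not. The signs that changed belong to differences near 0 that were not called. For KLF5 in si1 they were 0.0377 with equal medians, 0.0145 with voom on recovered reads and 0.0142 with low genes kept. Leaving out 1 library each gave −0.0631 to 0.0617 there, −0.0175 to 0.0449 for KLF5 with both groups together, −0.0336 to 0.0912 for KLF5 in si2 against si1, −0.0190 to 0.2143 for EHF in si2, −0.2149 to 0.0184 for EHF in si2 against si1, −0.0189 to 0.2152 for FOXA1 and −0.1894 to 0.1826 for TFAP2A in si2 against si1.

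With no filter, 1127 genes were called with both groups together, 1414 in si1, 1785 in si2 and 3130 in si2 against si1, where 2529, 2758, 3578 and 4743 were called with the filter. With the knockdown libraries as 1 group, 84 were called. Leaving out NC library 1 or 2 gave 726 and 701 with both groups together, 1114 and 1257 in si1, and 1665 and 1490 in si2. Leaving out si2 library 1 gave 1617 with both groups together, 1686 in si2 and 2973 in si2 against si1, and leaving out si2 library 2 gave 1991 in si2. Leaving out any 1 library gave 701 to 2844 with both groups together, 1114 to 2443 in si1, 1490 to 4047 in si2 and 2973 to 4367 in si2 against si1. Members called with both groups together numbered 3, but 1 with no filter, 1 with the knockdown libraries as 1 group and 1 to 3 without 1 library. The cause was not tested. Where a group is left with 1 library, that library is assumed to vary like the others.

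With the replicate number as a block, 2058, 2335, 3121 and 4314 genes were called, and FOXA1 with both groups together lost its call (adjusted p = 0.0575). The deviations of same-numbered libraries correlated at −0.05, 0.05 and −0.06, so no large effect shared by a number was seen. Whether same-numbered libraries were prepared together cannot be told from this. The planned count models on recovered reads were not run. SOX2, SOX15 and GRHL2 are limited by depth, with at most 41 reads in a library.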
